A study of Mus musculus with 76 samples.

Results

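The 10 genes described here build or organise elastic fibres in the mouse lung: Eln, Fbn1, Fbln5, Lox, Loxl1, Ltbp4, Emilin1, Mfap4, Efemp2 and Fbln1. They were taken by symbol from 20710 genes measured, each by its probe with the highest mean over 76 arrays, and all 10 were found. The series profiled microdissected lung vessels (37 arrays) and alveolar septa (39 arrays) of 40 mice on single-colour Agilent arrays, in a model of emphysema and pulmonary hypertension caused by cigarette smoke. Noxo1 encodes an organiser subunit of a superoxide-producing NADPH oxidase.

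Within each tissue the groups were smoke-exposed knockout, control knockout, smoke-exposed wild-type and control wild-type mice, each at 8 and at 3 months. That makes 16 groups, 12 of 5 arrays and 4 of 4 arrays. The labels give 1 strain name for the series, C57BL/6-Noxo1(tm1881_17.2Arte). Smoke was given from week 12 of age on 5 days of each week, 6 hours daily, at 140 mg of particles per m3. The mice at 8 months were also older than those at 3 months, so age and length of exposure cannot be told apart among the smoke-exposed mice.

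An elastic fibre has a core of cross-linked elastin on a scaffold of fibrillin microfibrils. Cells secrete tropoelastin, the product of Eln, and fibulins and latent TGF-beta binding proteins bring it to the microfibrils made of fibrillin 1, the product of Fbn1. The copper enzymes Lox and Loxl1 then oxidise lysines so that the monomers link. In the lung these fibres give the alveolar walls their recoil and form the elastic layers of the arteries, and loss of elastin is a hallmark of emphysema.

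The genes lie on different chromosomes of the mouse build GRCm38.p6, apart from a pair on chromosome 5. Eln spans 134702595 to 134747368 of that chromosome, and Emilin1 30913387 to 30921279. Fbn1 is at 125300594 to 125506485 of chromosome 2, Ltbp4 at 27305140 to 27339720 of chromosome 7 and Loxl1 at 58287723 to 58313212 of chromosome 9. Mfap4 is at 61485431 to 61488708 of chromosome 11, Fbln5 at 101746565 to 101819119 of chromosome 12 and Fbln1 at 85205949 to 85286294 of chromosome 15. Efemp2 lies at 5473946 to 5482520 of chromosome 19, and Lox on a chromosome of its own.

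Promoters are shown for 3 of the genes that were higher in vessels, because they differ in base composition although their expression moved the same way between the tissues. Each run is the 250 bases before a RefSeq transcription start in GRCm38.p6, read 5′ to 3′ on the strand of the gene. For Ltbp4 that start and the whole run lie inside the gene span given above. Capitals mark the GC box GGGCGG and the Smad-binding element CAGAC, each searched on both strands, so that CCGCCC and GTCTG are the reverse-strand matches. The Fbln5 run is chr12:101819120-101819369 on the minus strand, the Ltbp4 run is chr7:27337613-27337862 on the minus strand, and the Fbln1 run is chr15:85205699-85205948 on the plus strand.
Fbln5: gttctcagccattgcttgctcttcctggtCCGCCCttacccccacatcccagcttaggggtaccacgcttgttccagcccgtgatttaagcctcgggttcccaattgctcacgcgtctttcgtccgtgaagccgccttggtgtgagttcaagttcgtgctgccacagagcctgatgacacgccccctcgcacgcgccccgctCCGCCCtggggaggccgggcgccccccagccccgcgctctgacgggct
Ltbp4: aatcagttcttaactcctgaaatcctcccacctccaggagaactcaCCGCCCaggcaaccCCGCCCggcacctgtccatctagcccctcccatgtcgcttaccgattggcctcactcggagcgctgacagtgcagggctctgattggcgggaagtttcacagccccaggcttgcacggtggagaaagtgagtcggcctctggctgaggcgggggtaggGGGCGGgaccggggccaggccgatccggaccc
Fbln1: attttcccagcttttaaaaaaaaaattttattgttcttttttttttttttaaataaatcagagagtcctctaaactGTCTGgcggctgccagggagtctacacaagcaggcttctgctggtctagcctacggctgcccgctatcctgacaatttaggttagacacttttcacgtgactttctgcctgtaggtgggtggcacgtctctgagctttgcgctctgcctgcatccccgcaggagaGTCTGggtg

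The Fbln5 window held 2 GC boxes at a GC content of 65.2%, and the Ltbp4 window held 3 at 64.4%. The Fbln1 window held no GC box at 46.4% and had 2 Smad elements, of which the Fbln5 and Ltbp4 windows had none. Among the other windows found, Fbn1 had 1 GC box, Efemp2 had 2 GC boxes and 2 Smad elements, and Emilin1 had 2 Smad elements. The Emilin1 window lies wholly inside the span of its gene, and the Fbn1 window overlaps the end of its own. No motif letters overlapped in these windows. Of 27025 mouse promoter windows of the same length, 32.94% held a GC box and 42.11% a Smad element. The smooth muscle CArG box was present in 1.4% of all windows and in none of these 6. Promoters of Eln, Lox, Loxl1 and Mfap4 were not used here.

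Values below are log2 signals as deposited, and a difference of 1 is a doubling of signal. As a yardstick for background, 1322 odorant and vomeronasal receptor genes, which lung tissue is not known to use, had a median signal of 2.01, and 95% of their single-array signals lay under 3.99. A test was passed at a limma p-value adjusted by Benjamini-Hochberg over all 20710 genes under 0.05. Nothing in the labels says that arrays of 1 group came from separate litters, but each has its own mouse number, apart from 2 arrays of control wild-type vessels at 3 months, which both carry mouse 25.

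Smooth muscle and alveolar markers separated the tissues, but vessel samples also carried airway markers. All 9 smooth muscle markers were higher in vessels, and their mean ran from 9.59 to 11.63 over vessel samples against 5.16 to 7.13 over septa arrays. All 6 type 1 pneumocyte markers were lower in vessels, where their mean ran from 5.38 to 9.91 against 9.19 to 11.22 in septa, so alveolar markers were also measured in vessel samples. All 5 ciliated cell markers, of the airways, and 4 of 5 markers of the pulmonary vein were higher in vessels as well. The median difference was 4.72 over the ciliated and 4.09 over the smooth muscle markers, so vessel samples were not vessels alone. Noxo1 averaged 3.20 ± 1.25 in knockout and 4.05 ± 1.54 in wild-type vessels (SD, n = 18 each), and 2.42 ± 0.67 in knockout (n = 20) and 3.72 ± 1.27 in wild-type septa (SD, n = 19). The vessel library labelled control knockout, mouse 7, at 8 months had 7.03, above the highest wild-type vessel sample (6.69) and so against its label. The other 17 knockout vessel arrays averaged 2.97 ± 0.82 (SD), with a highest value of 4.57. No source at hand says whether the Noxo1 probe lies in the deleted part of the gene.

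In 2 mice, the control knockout mouse 7 and the control wild-type mouse 29, both at 8 months, Xist and the Y-linked genes gave a female pattern in 1 tissue and a male pattern in the other. The 2 arrays under each of these numbers thus did not match each other. For the 10 genes, differences that passed between tissues or months are given with and without both mice. For the 7 genes higher in vessels, those without both mice are given as a range. Counts of mice with vessels higher or lower include both mice unless stated. Of 140 related and marker genes, 90 passed between tissues and 89 of them also without these mice. Between months 14 passed in septa and 10 of them without the mice, and 6 and 5 in vessels. Female patterns were also unevenly spread, in 9 of 18 smoke-exposed and 3 of 19 control vessel arrays, and in 10 of 20 smoke-exposed and 4 of 19 control septa arrays.

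Vessels and septa differed in most elastic fibre genes. Eln, Fbln1, Loxl1, Fbn1, Fbln5, Ltbp4 and Efemp2 were higher in vessels, by 2.18-fold to 6.37-fold. Mfap4 and Lox were lower in vessels, by 1.71-fold and 1.54-fold, and Emilin1 did not pass the test. Without mice 7 and 29 the count was 8, with Lox lost, and the 7 higher genes differed by 1.08 (Efemp2) to 2.74 (Eln). The count of 9 in 10 stands beside 28.9% of all genes tested. The 7 higher genes stand beside 12.7% of all genes that were higher in vessels, and the 2 lower genes beside 16.2% that were lower. The median difference was 1.33 over the 10 genes and 0.02 over all genes. In bulk samples, more cells of a type and more RNA per cell cannot be told apart.

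**Figure D1:**
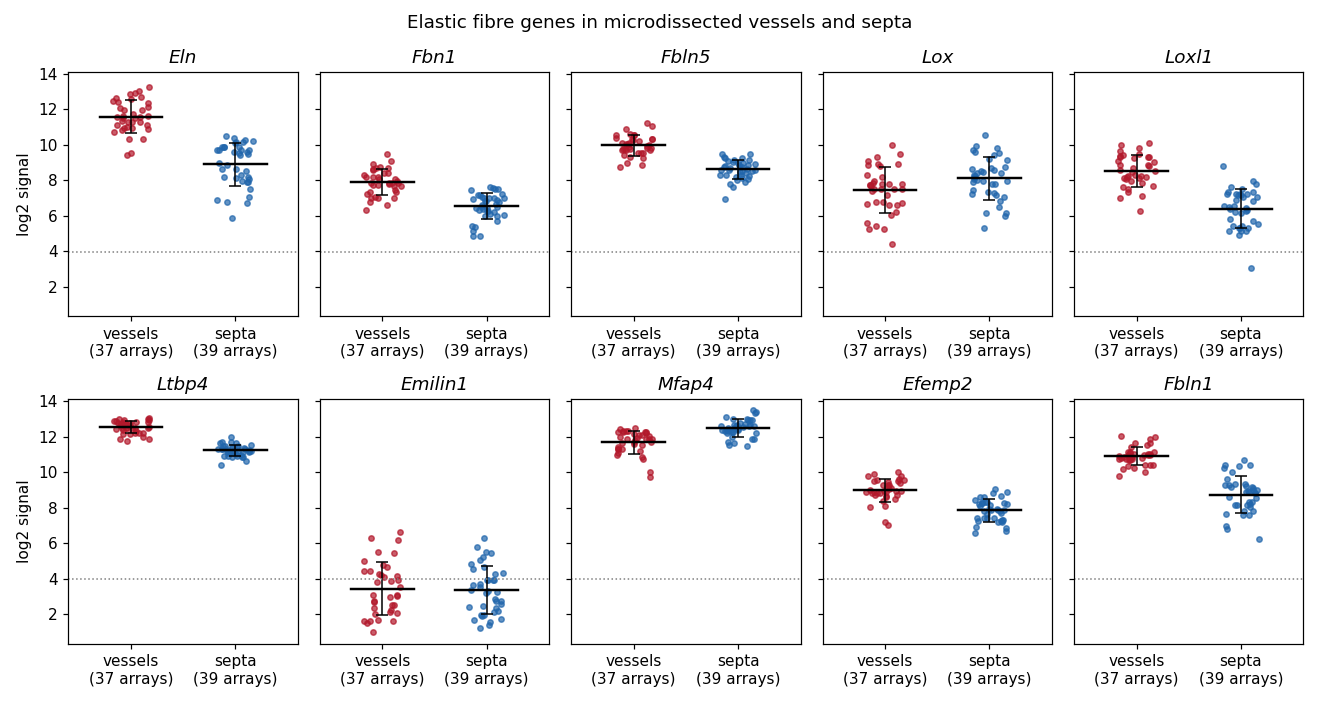
Log2 signal of each elastic fibre gene (y axis) in every vessel array (left of each pair, n = 37) and septa array (right, n = 39); points are arrays, bars give the mean and SD, and the dotted line is the 95th percentile of receptor gene signals, 3.99. Eln, Fbln1 and Loxl1 show the widest gaps, Mfap4 lies lower in vessels, and Emilin1 sits around the dotted line in both tissues.

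Eln, which encodes tropoelastin, had the largest difference of the 10. Its signal had a lowest value of 9.43, a median of 11.5 and a highest value of 13.3 over 37 vessel arrays, against 5.89, 9.42 and 10.5 over 39 septa arrays. The top of the septa range thus reached into the lower part of the vessel range. The difference was 2.67 ± 0.24 (SE, adjusted p = 1.85e-15, limma), and vessels were higher in 35 of 35 mice with both tissues, by 0.46 to 5.77. Without mice 7 and 29, vessels were higher in 33 of 33.

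Among the fibulins, Fbln1, which is found in elastic fibres and basement membranes, differed most. Its signal ran from 9.77 through a median of 10.9 to 12.0 over vessel arrays, against 6.24, 8.87 and 10.7 over septa arrays. The difference was 2.19 ± 0.18 (SE, adjusted p = 9.52e-17), with vessels higher in 35 of 35 mice. A second Fbln1 probe gave a raw difference of 2.60.

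Fbln5, which tethers elastin to cells through integrins and binds Loxl1, ran from 8.73 through 9.92 to 11.2 in vessels, against 6.96, 8.66 and 9.51 in septa. The difference was 1.35 ± 0.12 (SE, adjusted p = 2.42e-15), in 34 of 35 mice. A second Fbln5 probe averaged 2.23 in vessels and 2.22 in septa, at the level of the receptor genes, and so measured little. Efemp2, the fibulin 4 that brings Lox to tropoelastin, ran from 7.01 through 8.94 to 10.0 in vessels, against 6.60, 7.88 and 9.03 in septa. It differed by 1.12 ± 0.13 (SE, adjusted p = 8.41e-11), in 32 of 35 mice.

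The microfibril genes Fbn1 and Ltbp4 were likewise higher in vessels. Fbn1 ran from 6.34 through 7.87 to 9.50 in vessels, against 4.85, 6.59 and 7.62 in septa, a difference of 1.35 ± 0.16 (SE, adjusted p = 4.34e-11) in 31 of 35 mice. Ltbp4, whose product binds fibrillin and fibulins and stores latent TGF-beta, was the steadiest of the 10. It ran from 11.7 through 12.5 to 13.0 in vessels, against 10.4, 11.2 and 12.0 in septa. The difference was 1.31 ± 0.08 (SE, adjusted p = 4.86e-24), in 35 of 35 mice. A second Ltbp4 probe gave a raw difference of 1.61, and a further one, of low signal, 1.49.

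The cross-linking enzymes Loxl1 and Lox went opposite ways. Loxl1 ran from 6.28 through 8.52 to 10.1 in vessels, against 3.06, 6.52 and 8.79 in septa, a difference of 2.12 ± 0.22 (SE, adjusted p = 5.57e-13) in 34 of 35 mice. Lox ran from 4.40 through 7.54 to 9.97 in vessels, against 5.33, 8.18 and 10.5 in septa, ranges that overlap almost wholly. Its difference of -0.62 ± 0.24 (SE) just passed, at an adjusted p of 0.0444, and vessels were lower in 23 of 35 mice. Without mice 7 and 29 the Lox difference was -0.51 at an adjusted p of 0.114, and leaving out single arrays ended the call in 34 of 76 fits. A second Lox probe was also lower in vessels, by 1.07 on average, yet in vessels its deviations from group means ran against those of the first probe (r = -0.29, n = 36), while in septa they ran together (r = 0.73, n = 39).

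Mfap4, a fibrinogen-related protein that binds elastin and fibrillin, was the clearest exception. It ran from 9.70 through 11.8 to 12.5 in vessels, against 11.5, 12.5 and 13.5 in septa. The difference was -0.77 ± 0.12 (SE, adjusted p = 5.95e-07), with vessels lower in 29 of 35 mice, and without mice 7 and 29 it was -0.82 at an adjusted p of 3.49e-07. Emilin1, a glycoprotein at the interface of elastin and microfibrils, was above the receptor genes' 95th percentile in only 14 of 37 vessel and 11 of 39 septa arrays. Its difference was 0.14, with a 95% interval from -0.49 to 0.76.

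**Figure D2:**
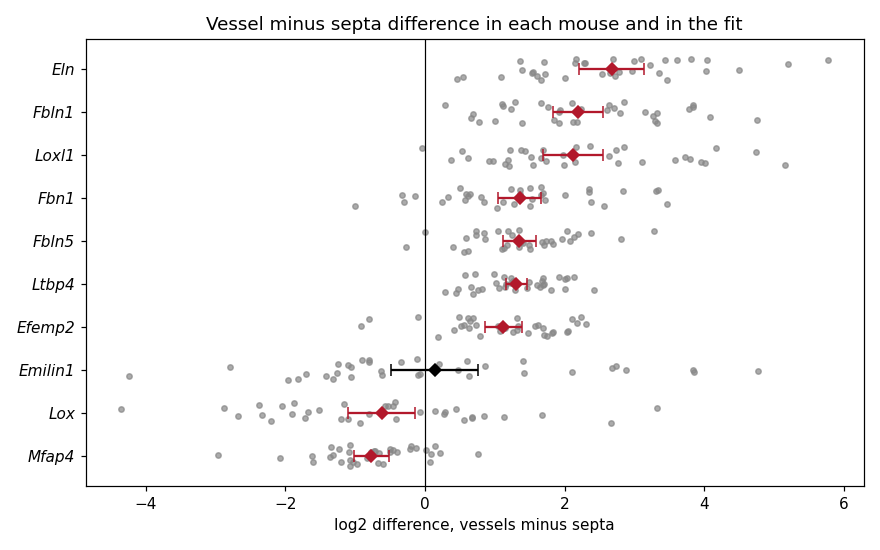
Log2 difference, vessels minus septa (x axis), for each elastic fibre gene; grey points are the 35 mice with both tissues, diamonds are the limma estimates with 95% intervals, red where the adjusted p was under 0.05. For Eln, Fbln1 and Ltbp4 all 35 points lie right of 0, whereas 29 of the 35 Mfap4 points lie left of it.

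For 8 of the 9 genes called, the direction held across the 8 conditions, whereas the tests within single conditions, on 4 or 5 arrays a tissue, passed for fewer genes. Eln, Fbn1, Fbln5, Loxl1, Ltbp4, Efemp2 and Fbln1 were above 0 in 8 of 8 conditions, and Mfap4 below 0 in 8 of 8. Lox was below 0 in 7 and above 0 in control wild-type mice at 3 months (0.35). Ltbp4 passed the test in 8 conditions, Fbln1 in 7, Eln in 6, Fbln5 in 5, Loxl1 in 4, Efemp2 in 4, Fbn1 in 2 and Mfap4 in 1. Lox and Emilin1 passed in none.

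Smoke-exposed knockout mice at 8 months had 4 of the 10 genes called, beside 2.52% of all genes, and smoke-exposed wild-type mice at 8 months had 7, beside 3.67%. Control knockout mice at 8 months had 6, beside 6.44%, and control wild-type mice at 8 months 6, beside 3.25%. At 3 months the counts were 4 in smoke-exposed knockout mice (4.37% of all genes), 4 in control knockout mice (4.71%), 4 in smoke-exposed wild-type mice (5.13%) and 2 in control wild-type mice (3.36%). Without mice 7 and 29 the control knockout count at 8 months was 3, and it was also 3 without the fourth control knockout septa array at 8 months. Averaging all probes of a gene left 1 call in smoke-exposed wild-type mice at 3 months. With mouse as a fixed factor the control wild-type count at 3 months was 0, and it was 1 without the first control wild-type septa array at 3 months.

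The Eln difference ran from 1.90 in control knockout mice at 8 months to 3.53 in smoke-exposed wild-type mice at 8 months. In the control knockout group Eln had 12.0, 11.3, 10.4, 11.0 and 11.7 in vessels, against 9.90, 10.5, 8.17, 8.12 and 10.2 in septa. In the smoke-exposed wild-type group it had 12.7, 11.5, 11.1 and 10.7 in vessels, against 10.1, 7.49, 5.89, 9.54 and 6.89 in septa. The tissues did not overlap in smoke-exposed wild-type mice, and overlapped slightly in control knockout mice, whose highest septa array was above the lowest vessel array. The adjusted p was 0.0633 in control knockout and 0.000318 in smoke-exposed wild-type mice (limma). Without mouse 7 the control knockout difference was 2.24 (adjusted p = 0.0675), above the 2.13 of smoke-exposed knockout mice at 8 months. It passed without the second septa array (adjusted p = 0.0447) or the third vessel array (0.0433) of its group.

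Ordered by level, all 8 vessel groups averaged above all 8 septa groups for Eln, Fbn1, Fbln5, Loxl1, Ltbp4 and Fbln1. For Efemp2 this was so for 7 vessel groups, and for Mfap4 all 8 septa groups averaged above all 8 vessel groups. Within a tissue the order was loose: among the 7 neighbouring pairs of group means, none of the 10 genes had a pair further apart than the larger of the SDs of both groups in either tissue. Against the smaller SD, 1 or 2 pairs were further apart for Fbn1, Fbln5, Emilin1 and Mfap4 in vessels and for Loxl1, Ltbp4 and Efemp2 in septa. Ltbp4 group means spanned 0.31 in vessels and 0.50 in septa, whereas Lox group means spanned 2.06 in vessels and 2.41 in septa.

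**Figure D3:**
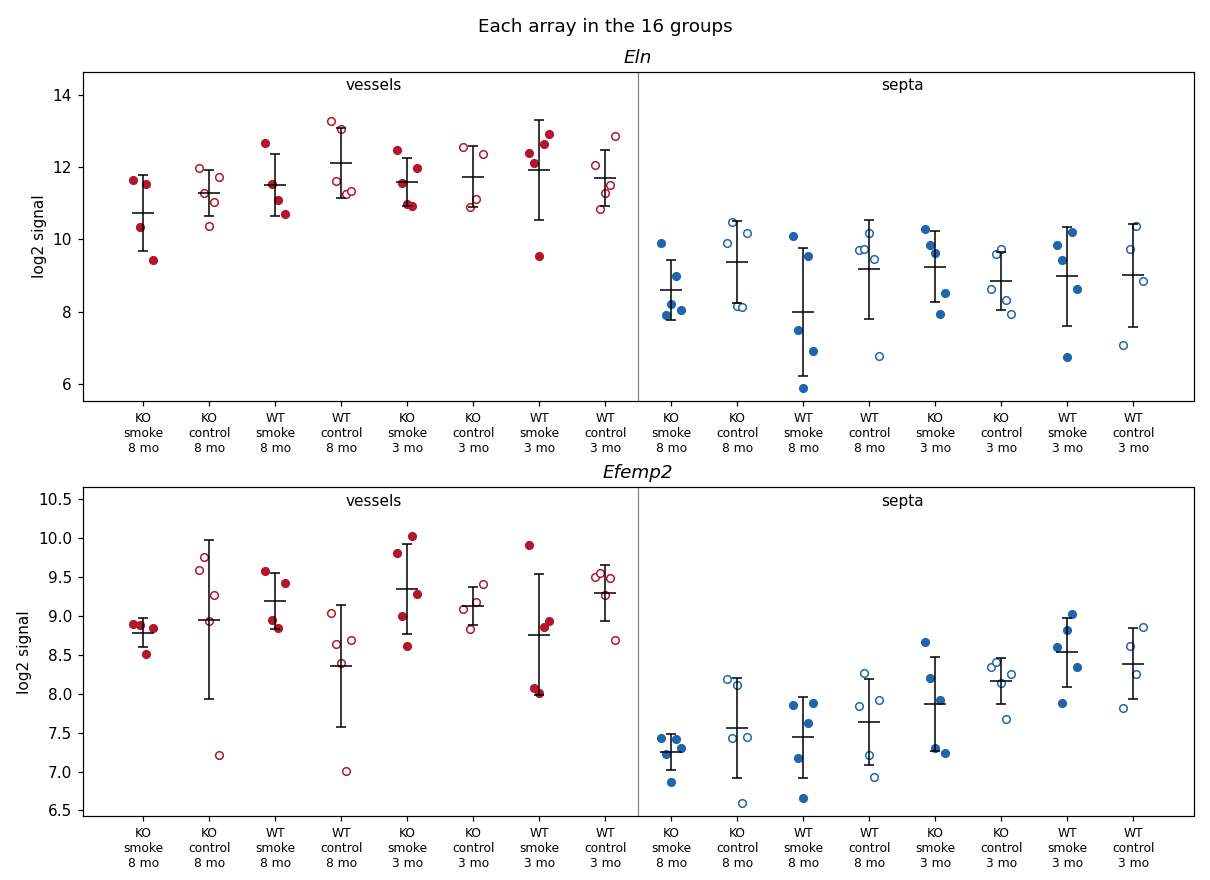
Log2 signal (y axis) of Eln (top) and Efemp2 (bottom) by group, with points for arrays and bars for mean and SD. Vessels are left of the vertical line and septa right. Within each tissue 8 months precedes 3 months, knockout precedes wild-type, and filled (smoke) precedes open (control) symbols. For Eln all 8 vessel groups average above all 8 septa groups, and for Efemp2 7 of the 8 vessel groups do.

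Genes that work with these 10 split between the tissues. The list counts between tissues, here and below, stand beside 12.7% of all genes higher and 16.2% lower in vessels. Of 22 microfibril and elastic fibre associated genes, 8 were higher in vessels and 8 lower, with a median of 0.12. The proteoglycan Dcn was higher by 6.78, the fibulin Fbln2 by 5.41, the proteoglycan Vcan by 2.92 and the microfibril organiser Thsd4 by 2.64. Septa means of Fbln2 (2.98) and Vcan (3.62) lay in the receptor genes' range, so the size of these differences is uncertain. Mfap2, a microfibril glycoprotein, and Fbn2, the second fibrillin, were lower in vessels, by 2.09 and 0.95 on the log2 scale, and were chosen for mention after their values were seen.

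Of 7 further genes of cross-linking and its supply, 2 were higher and 1 lower in vessels. The copper pump Atp7a was 2.01-fold lower, the procollagen proteinase Bmp1, which also activates Lox, was higher by 0.70, and its enhancer Pcolce by 0.42. Of 6 TGF-beta ligands and receptors 2 were higher, Tgfb3 by 3.20 and Tgfb2 by 1.95, and none lower. Of 11 elastases 2 were higher and 3 lower: the gelatinase Mmp9 was at -2.52 and the macrophage elastase Mmp12 at -1.28, both with vessel means in the receptor genes' range (2.81 and 3.03). Gelatinase Mmp2 was higher by 0.96 and cathepsin Ctsk by 1.24, with a septa mean of Ctsk (3.33) in that range. Of 10 elastase inhibitors measured from a list of 11, 3 were higher and 1 lower, with Timp4 higher by 3.79, Timp1 by 3.00 and Cst3 by 0.68, and Slpi at -1.45. The septa mean of Timp1 (2.82) was in the receptor genes' range too, so the sizes for these 4 genes of low signal are uncertain.

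Markers of other cells moved with the tissue as well, and their part in the gene differences was not tested. Besides the 9 of 9 smooth muscle markers, 4 of 7 adventitial fibroblast markers were higher in vessels and 1 lower, and their mean ran from 7.60 to 9.62 in vessels against 5.77 to 7.73 in septa. Of 6 alveolar fibroblast markers 4 were lower and 1 higher, and their mean ran from 7.76 to 9.93 in vessels against 8.50 to 10.5 in septa. Of 6 pericyte markers 2 were higher and 1 lower. Of 6 arterial and venous endothelial markers 4 were higher and 1 lower, and their mean ran from 8.07 to 10.1 in vessels against 7.58 to 8.99 in septa. Of 4 club cell markers, of the airways, 3 were higher, and their mean ran from 8.58 to 11.5 in vessels against 7.71 to 10.9 in septa. Of 6 capillary endothelial, 6 type 2 pneumocyte and 6 alveolar macrophage markers, 5, 6 and 5 were lower and none higher. The 4 mesothelial and 5 chondrocyte markers all averaged below the receptor genes' 95th percentile in both tissues, and none of them passed the test.

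Within a tissue, the 10 genes followed one another only loosely. After group means were removed, the 45 pairs had a median correlation of 0.18 over 36 vessel samples, with 36 pairs above 0, and of 0.20 over 39 septa arrays, with 32 above 0. Eln and Loxl1 correlated at 0.49 in vessels and 0.48 in septa. The highest pair in septa was Ltbp4 with Mfap4, at 0.67. In vessels it was Emilin1, with signals near background, and Mfap4, at 0.62. These correlations are descriptions, since genes of 1 array share its amplification and labelling.

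The genes most like Eln over the 16 group means were Aebp1 (r = 0.97), Acta2 (0.97), Afap1l2 (0.97), Cnn1 (0.97) and Hcfc1r1 (0.97), a likeness that rests mainly on the gap between tissues. Over deviations from group means the nearest were Rhoj (0.77), Niban1 (0.71), Irf2bp2 (0.70), Rhoc (0.67) and Actn1 (0.66) in vessels, and Col3a1 (0.66), Extl3 (0.63), Chst11 (0.63), Creb3l1 (0.61) and Grb7 (0.59) in septa. For Fbln1 the nearest gene was Col1a2 over group means (0.98), Pafah1b2 within vessels (0.63) and Col3a1 within septa (0.74). For Ltbp4 it was P2rx1 over group means (0.995), Lims2 within vessels (0.83) and Gstm2 within septa (0.73). For Mfap4 it was Ripply3 over group means (0.98), Tmem104 within vessels (0.68) and Pmp22 within septa (0.78). For Loxl1 it was Cavin3 over group means (0.98), Snx15 within vessels (0.67) and Mif within septa (0.68).

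The other genes had Fblim1 for Fbln5 over group means (0.97), Prdm6 within vessels (0.75) and Slc12a2 within septa (0.73). Fbn1 had Gfpt2 (0.95), Pgrmc2 within vessels (0.67) and Tm7sf2 within septa (0.71), and Efemp2 had Kif21a (0.94), Prex1 within vessels (0.71) and Rab4a within septa (0.69). Lox and Emilin1 had weaker matches over group means, Ube3a for Lox (0.79) and Iffo2 for Emilin1 (0.79). Within vessels Lox had Unc5c (0.68) and Emilin1 had Prkx (0.68), and within septa Zbtb44 (0.63) and Kxd1 (0.67). All were ranked among genes with a mean above the receptor genes' 95th percentile. Each nearest gene is thus the highest of 10455, or of 10456 for Emilin1, over 36 vessel or 39 septa points within a tissue. Emilin1, with signals near background, reached values there like those of the other genes. Smooth muscle markers, as a mean, correlated with Eln deviations at 0.41 in vessels and 0.20 in septa.

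Between 8 and 3 months, 1 of the 10 genes changed in septa, where Efemp2 was lower at 8 months. That count stands beside 3.5% of all genes changed and 1.27% lower. In septa 3 of the 10 had an unadjusted p under 0.05, beside 3280 of all 20710 genes in either direction. Besides Efemp2 these were Ltbp4, at -0.28 (adjusted p = 0.120, limma), and Lox, at 0.75 (adjusted p = 0.167). In vessels none passed, beside 1.27% of all genes. At an unadjusted p under 0.05 there were 5 of the 10, all 5 higher at 8 months, beside 13.9% of all genes in either direction. With the replicate block Loxl1 passed (adjusted p = 0.0396), and in a single fit over 76 arrays Fbn1 passed (0.0475). Over all 10 alternative limma fits the adjusted p reached 0.282 for Loxl1 and 0.13 for Fbn1. The median difference over the 10 genes was 0.37 in vessels and -0.10 in septa, against 0.02 over all genes in each tissue.

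Efemp2 in septa had a lowest value of 6.60, a median of 7.44 and a highest value of 8.27 over 20 arrays at 8 months, against 7.24, 8.26 and 9.03 over 19 arrays at 3 months. The difference was -0.77 ± 0.17 (SE, adjusted p = 0.00521, limma), a 1.70-fold lower signal. It kept its call in all 39 fits that left out 1 array, with adjusted p between 0.00344 and 0.0131, and was -0.72 without mice 7 and 29 (adjusted p = 0.0131).

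All 4 genotype and exposure groups leaned the same way. In smoke-exposed wild-type septa Efemp2 had 7.86, 7.18, 6.67, 7.62 and 7.89 at 8 months, against 8.60, 7.88, 8.82, 9.03 and 8.34 at 3 months, ranges that just overlap. In smoke-exposed knockout septa it had 7.44, 7.23, 6.86, 7.42 and 7.30 at 8 months, against 8.66, 8.21, 7.30, 7.92 and 7.24 at 3 months, with overlap. In control knockout septa it had 8.20, 7.44, 8.11, 6.60 and 7.45, against 8.34, 8.41, 8.14, 7.67 and 8.26, and in control wild-type septa 7.84, 8.27, 7.21, 6.93 and 7.93, against 7.82, 8.62, 8.25 and 8.86, with overlap in both. The differences were -1.09, -0.62, -0.61 and -0.75, and without the fourth control knockout array at 8 months the third of these was -0.37. None passed on its own, at adjusted p from 0.223 to 0.750, beside 0.0773% of all genes in smoke-exposed wild-type septa and 0% in each of the other 3 groups. In vessels Efemp2 differed by -0.32 (adjusted p = 0.539), and the tissues' month differences were not shown to differ (0.46, adjusted p = 0.658).

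Loxl1 and Fbn1 came nearest to the threshold in vessels. Loxl1 had 7.65, 9.31 and 10.1 as lowest, median and highest over 18 vessel arrays at 8 months, against 6.28, 8.20 and 9.25 over 18 samples at 3 months. The difference was 0.87 ± 0.25 (SE, adjusted p = 0.0696). Fbn1 had 7.35, 8.26 and 9.50 in vessels at 8 months, against 6.34, 7.58 and 8.67 at 3 months, a difference of 0.74 ± 0.22 (SE, adjusted p = 0.0828). Both ranges overlapped widely. The differences without mice 7 and 29 were 0.85 for Loxl1 (adjusted p = 0.113) and 0.76 for Fbn1 (adjusted p = 0.117).

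Fbln1 differed by 0.48 in vessels (adjusted p = 0.113), Fbln5 by 0.39 (0.297) and Emilin1 by 0.99 (0.339), the last from signals near background. Eln, by contrast, was at -0.32 in vessels (adjusted p = 0.653) and -0.23 in septa (0.828). Whether the month difference varied between vessels and septa was tested directly, and none of the 10 passed, beside 0.0338% of all genes. The 4 genes at an unadjusted p under 0.05 were Loxl1 (1.28, adjusted p = 0.360), Fbn1 (0.65, 0.559), Fbln5 (0.55, 0.509) and Ltbp4 (0.36, 0.498). They stand beside 8.47% of all genes at that unadjusted threshold.

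Lox in septa averaged higher at 8 months in both wild-type groups. None of these tests passed, and the difference between genotypes was not tested. In smoke-exposed wild-type septa it had 8.39, 8.52, 8.73, 7.81 and 9.22 at 8 months, against 7.80, 6.18, 5.33, 6.50 and 7.49 at 3 months, without overlap. In control wild-type septa it had 9.83, 8.00, 8.64, 9.73 and 9.14 at 8 months, against 8.44, 6.83, 5.98 and 7.17 at 3 months, with 1 array of 3 months above the lowest of 8 months. The differences were 1.87 (adjusted p = 0.226) and 1.96 (adjusted p = 0.276) in wild-type septa, and -0.73 and -0.09 in smoke-exposed and control knockout septa. Without mice 7 and 29 the control differences were 1.80 in wild-type (adjusted p = 0.331) and -0.65 in knockout septa (adjusted p = 0.842). Leaving out single arrays put the control knockout difference between -0.65 and 0.45. The smoke-exposed knockout difference was -1.11 without the third array at 8 months.

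**Figure D4:**
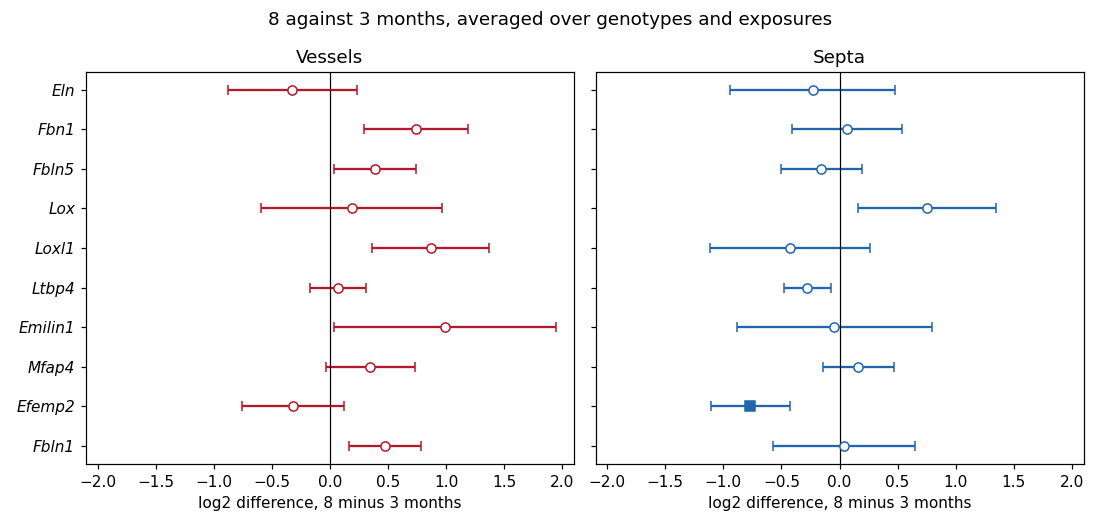
Log2 difference, 8 minus 3 months (x axis), for each elastic fibre gene in vessels (left) and septa (right), averaged over genotype and exposure. Symbols are limma estimates with 95% intervals, a filled square where the adjusted p was under 0.05 and an open circle elsewhere. The filled square is Efemp2 in septa, and the vessel estimates of Loxl1, Fbn1 and Fbln1 lie right of 0 with open circles.

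Related genes that changed with the months in septa were few. List counts between months, here and below, stand beside 2.23% of all genes higher and 1.27% lower at 8 months in septa. In vessels these shares were 1.02% and 0.246%. Bgn, a small proteoglycan of the microfibril list, was lower by 0.78 on the log2 scale at 8 months, 1 of its list's 22 genes. The elastase Ctsl was higher by 0.41 and the inhibitors Serpina1a and Serpinb1a by 1.03 and 0.68. In vessels Timp4, Timp3 and Ctsl were higher by 1.07, 1.00 and 0.77. Once mice 7 and 29 were left out, Ctsl (adjusted p = 0.0598), Serpina1a (0.0700) and Serpinb1a (0.0628) did not pass in septa, nor did Timp4 (0.0756) in vessels. No gene of the cross-linking or TGF-beta lists passed in either tissue.

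Cell markers also moved with the months in septa, and their part in the Efemp2 difference was not tested. Of 6 alveolar fibroblast markers 2 were lower at 8 months (Npnt by -0.79 and Gyg by -0.68), and the list's mean ran from 8.50 to 9.67 at 8 months against 9.14 to 10.5 at 3 months. Of 6 arterial and venous endothelial markers 3 were lower (Gja4, Gja5 and Vwf), with list means of 7.58 to 8.47 at 8 months against 7.94 to 8.99 at 3 months. Of 6 alveolar macrophage markers 2 were higher (Chil3 and Plet1), with list means of 6.24 to 9.89 at 8 months against 4.39 to 8.54 at 3 months. Also higher were 1 of 7 adventitial fibroblast, 1 of 6 type 2 pneumocyte and 1 of 4 club cell markers. In vessels 1 of 7 adventitial fibroblast and 1 of 6 arterial and venous endothelial markers were higher, and 1 of 6 alveolar fibroblast markers was lower.

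Cigarette smoke changed none of the 10 genes past the test. This was so in vessels and in septa averaged over genotype and months, where 0% of all genes passed. It was also so in each of the 8 comparisons within genotype, months and tissue, where 0% of all genes passed in 7 and 0.00483% in wild-type septa at 3 months. At an unadjusted p under 0.05 the averaged comparisons held 1 of the 10 genes in vessels and 0 in septa, and limma was the tool run. These counts stand beside 5% of all genes in vessels and 7.7% in septa at that threshold.

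Fbln5 was that gene in vessels, at 0.36 ± 0.17 (SE, unadjusted p = 0.0467, adjusted p = 0.977). Its differences were 0.59 and 0.39 in wild-type and knockout vessels at 8 months, and 0.01 and 0.44 at 3 months, and each moved by over 1.5 times without 1 of the arrays. In septa the widest averaged difference belonged to Fbn1, at -0.46 ± 0.24 (SE, adjusted p = 0.652), and it was below 0 in all 4 septa comparisons.

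Smoke-exposed wild-type septa at 8 months gave the lowest Eln and Fbn1 group means of all 16 groups. For Fbn1 this rested on the third array, without which the mean was 6.16, against 6.09 in smoke-exposed knockout septa at 3 months. In wild-type septa at 8 months Eln had 10.1, 7.49, 5.89, 9.54 and 6.89 with smoke, against 9.70, 9.73, 10.2, 9.47 and 6.77 in controls. The smoke group held both the lowest array of the 2 groups and values up to the control level. The difference was -1.19 ± 0.70 (SE, adjusted p = 0.873). It was -1.79 without the fifth control array, at 6.77, and -0.66 without the third smoke array, at 5.89. Fbn1 had 5.98, 6.27, 4.88, 6.03 and 6.36 with smoke, against 7.25, 6.20, 6.26, 7.47 and 6.85 in controls, a difference of -0.90 ± 0.46 (SE, adjusted p = 0.864). Without mouse 29 the differences were -1.11 for Eln (adjusted p = 0.817) and -0.73 for Fbn1 (adjusted p = 0.825).

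The precision limits what can be said of smoke. The 95% interval of the averaged smoke difference ran from -0.82 to 0.29 for Eln in vessels and from -1.11 to 0.32 in septa. For Ltbp4 it was narrower, from -0.35 to 0.13 in vessels and from -0.18 to 0.22 in septa. Tests of whether smoke acted differently by genotype, by months or by tissue passed for none of the 10 genes, beside 0% of all genes by genotype or by months in either tissue and 0.00966% by tissue.

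Noxo1 genotype likewise changed none of the 10 genes past the test, beside 0% of all genes in the averaged comparisons of both tissues and in all 8 within exposure and months. At an unadjusted p under 0.05 the averaged comparisons held 1 of the 10 genes in vessels, beside 4.86% of all genes, and 0 in septa, beside 3.98%. The gene in vessels was again Fbln5, averaging 9.74 in knockout and 10.2 in wild-type vessels, a difference of -0.47 ± 0.17 (SE, unadjusted p = 0.0108, adjusted p = 0.979, limma). It was below 0 in all 4 vessel comparisons. In septa Fbln5 was at 0.14, and the difference between the tissues did not pass (-0.61, adjusted p = 0.999). Eln was at -0.47 in vessels, with a 95% interval from -1.02 to 0.09, and at 0.23 in septa, from -0.48 to 0.95.

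Lox had the largest single genotype differences. In smoke-exposed septa at 3 months it had 8.05, 8.77, 8.57, 8.25 and 9.62 in knockout mice, against 7.80, 6.18, 5.33, 6.50 and 7.49 in wild-type mice, without overlap. The difference was 1.99 ± 0.58 (SE, unadjusted p = 0.00131, adjusted p = 0.674). In control vessels at 8 months Lox went the other way, with 6.80, 7.82, 7.53, 6.20 and 4.40 in knockout mice, against 9.09, 8.20, 9.97, 7.41 and 7.54 in wild-type mice, where 2 knockout arrays reached above the lowest wild-type array. The difference was -1.89 ± 0.72 (SE, adjusted p = 0.999), and -1.87 without mice 7 and 29. It rests on 1 Lox probe, and in vessels the deviations of the second probe ran against those of the first (r = -0.29). The second probe was not tested between genotypes.

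**Figure D5:**
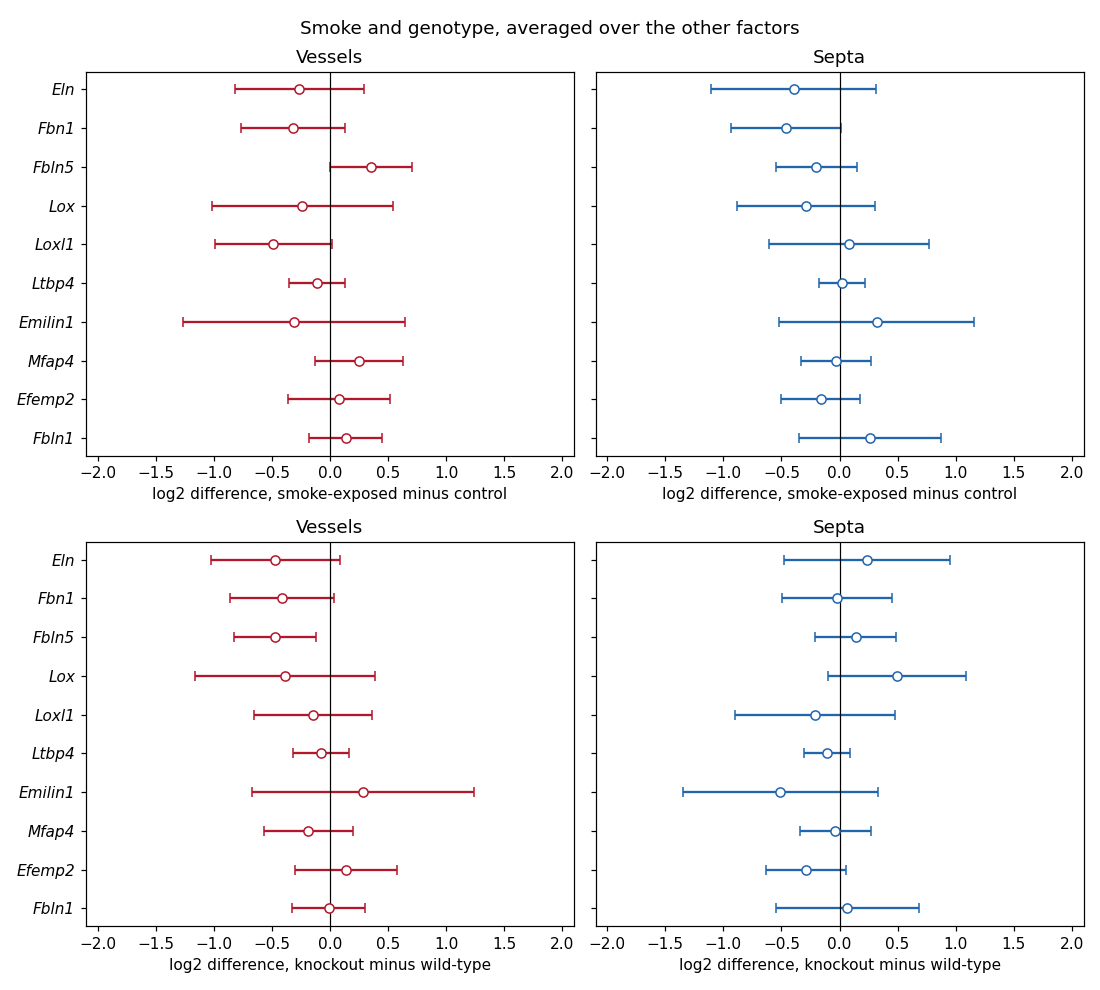
Log2 differences (x axis) for each elastic fibre gene, smoke-exposed minus control (top) and knockout minus wild-type (bottom), in vessels (left) and septa (right); circles are limma estimates averaged over the other factors with 95% intervals, open because no adjusted p was under 0.05. Emilin1 has the widest interval in each panel, and Fbln5 in vessels is the gene whose intervals do not reach 0.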

How the data were processed

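RNA was isolated with RNeasy Micro, amplified with Ovation PicoSL WTA V2 and Cy5-labelled, per the labels' protocols. The submitters' processing notes name limma without version or settings, and 4 arrays without signal were left out, per the labels. The values the authors deposited are log2 signals with nearly equal column medians (3.19 to 3.192). Equal medians do not tell by which method the arrays were normalized. How background was treated is not stated in these sources. Of 62976 features 31465 carried a symbol, and 671 with an empty cell were left out. The probe with the highest mean stood for each of 20710 genes.

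limma 3.58.1 in R 4.3.3 fitted 8 group means per tissue with a variance trend. Vessels against septa used 76 arrays with mouse as a random block (consensus correlation 0.0262). Both mouse 25 vessel arrays were averaged in vessel fits, which gives 36 replicates. The fits were tested on simulated data. The median residual SD was 0.98 in vessels and 0.74 in septa. The number of arrays limits the precision. In lists other than the 10 genes, up to 4 genes past the test with the largest differences are named; for Eln the 5 genes, and for each other gene the 1, with the highest correlation. Alternatives covered probe averaging, filters, array weights, normalization within tissue, sex pattern, blocks and leaving out arrays or mice. The genes and lists were chosen with earlier results of these data known.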

Additional observations from a re-analysis of the deposited data

Results flagged for a closer look

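In groups of 4 or 5 arrays, 13 of 160 gene and group combinations had an array standing far from the others by Dixon's test at 95%, where chance gives about 8. In vessels these were the lowest arrays of Loxl1 (8.15) and Ltbp4 (11.9) in smoke-exposed wild-type mice at 8 months, and of Efemp2 (8.51) in smoke-exposed knockout mice at 8 months. They were also the lowest arrays of Eln (9.52) and Fbln1 (9.99) in smoke-exposed wild-type mice at 3 months and of Mfap4 (10.0, 9.999 before rounding) in control knockout mice at 3 months. The highest Ltbp4 array (12.97) of control wild-type vessels at 3 months stood above the rest of its group once both mouse 25 arrays were averaged.

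In septa the lowest Fbn1 arrays stood apart in smoke-exposed knockout mice at 8 months (4.85), smoke-exposed wild-type mice at 8 months (4.88) and control knockout mice at 3 months (5.14). The lowest Eln array (6.77) stood apart in control wild-type mice at 8 months, and the lowest Ltbp4 array (10.91) in control wild-type mice at 3 months. The highest Mfap4 array (13.3) stood apart in smoke-exposed wild-type mice at 8 months.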

How the results depend on the processing

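Of 1189 values recomputed with another processing choice, 1159 were labelled unchanged. Differences among them kept direction and side of the threshold. Counts of genes called among them stayed at 0 or within 1.5 times the main count. Such counts could still move, as in smoke-exposed knockout mice at 8 months, where 3 to 6 genes passed between tissues, against 4. Signs turned in 15, all of differences that did not pass the test before or after. The sex pattern as a covariate turned Ltbp4 with smoke (-0.0461), Fbln1 between genotypes (-0.0331) and Fbn1 (-0.0221), Emilin1 (0.0042) and Fbln1 (-0.0077) between months in septa, and Fbln1 with smoke in vessels (-0.05). Averaging all probes turned Ltbp4 (0.0357) and Fbln1 (0.148) between genotypes and Ltbp4 between months (-0.0655) in vessels. Array weights turned Fbln1 between months in septa (-0.0405) and between genotypes in vessels (0.0177). Leaving out mice 7 and 29 turned Fbn1 between genotypes (0.0281) and Fbln1 between months (-0.0219) in septa. Both mouse 25 arrays as replicates (0.0208) and a single fit over 76 arrays (0.0169) turned Fbln1 between genotypes in vessels. Leaving out single arrays moved 11 such differences across 0: in septa with smoke Loxl1 (-0.1004 to 0.176), Ltbp4 (-0.0255 to 0.0563) and Mfap4 (-0.107 to 0.0457), between genotypes Fbn1 (-0.118 to 0.091), Mfap4 (-0.114 to 0.0391) and Fbln1 (-0.112 to 0.193), and between months Fbn1 (-0.0309 to 0.179), Emilin1 (-0.167 to 0.126) and Fbln1 (-0.14 to 0.165). In vessels these were Efemp2 with smoke (-0.0314 to 0.127) and Fbln1 between genotypes (-0.0935 to 0.04). In vessels 1 of the 10 genes passed between months with the replicate block (Loxl1, adjusted p = 0.0396) and 1 in a single fit over 76 arrays (Fbn1, 0.0475), against 0. Leaving out single arrays gave 0 to 1 there, with 1 without the second smoke-exposed knockout array at 3 months, the fourth control wild-type array at 8 months or the third smoke-exposed wild-type array at 8 months. Between tissues, averaging all probes gave 1 call against 4 in smoke-exposed wild-type mice at 3 months, leaving out mice 7 and 29 gave 3 against 6 in control knockout mice at 8 months, and mouse as a fixed factor gave 0 against 2 in control wild-type mice at 3 months. Leaving out arrays gave 3 to 7 in the second and 1 to 3 in the third of these. Over all genes, a single fit over 76 arrays called 225 between months in septa, against 725, and 1111 in vessels, against 262. The vessel count was 148 without mice 7 and 29 and 167 with the sex pattern as a covariate, and 171 to 343 without single arrays (171 without the second control wild-type array at 3 months). Lox between tissues lost its call with array weights (adjusted p = 0.0554), without the second mouse 25 array (0.0573), without mice 7 and 29 (0.114) and with mouse as a fixed factor (0.103). The causes were not tested. Replicate numbers did not pair the samples: same-numbered arrays of other groups correlated at 0.018 on average and others at -0.005.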
